A study of Mus musculus with 16 samples.

Results

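The 10 genes described here code for proteins of the extracellular matrix or of cell adhesion: Matn4, Pxdn, Bgn, Postn, Sdc4, Kirrel, Chl1, Fn1, Col1a1 and Col1a2. They are 10 of the 55291 genes counted in 16 RNA-seq libraries of mouse bone marrow LSK cells, the lineage-negative, c-Kit-positive and Sca-1-positive fraction in which haematopoietic stem cells and early progenitors are found. The first 8 were picked because their counts differed between genotypes in these same libraries, so their levels and fold changes are given as a description, with standard errors (SE) and without tests. Col1a1 and Col1a2 were taken as a reference for stromal cells.

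Each library came from 1 C57BL/6 mouse, and there were 4 mice in each of 4 groups. The WT group was wild type. The Asxl1Tg group carried the transgene Asxl1Y588XTg, which encodes a truncated form of the chromatin regulator Asxl1. The Srsf2P95H group had the genotype Srsf2P95H/+, a single-residue change in 1 allele of the splicing factor gene Srsf2. The DM group (double mutant) had the genotype Asxl1Y588XTg;Srsf2P95H/+. The design text of the series names 3 DM mice, but labels and count columns exist for 4, and all 4 were used. The Asxl1Tg columns bear a shortened name and were matched to their samples by elimination. The sources used here give no age, sex, transgene promoter or deleter strain, and the cells were enriched with beads. The series title concerns how the Srsf2 mutation acts in leukaemia that arises with the Asxl1 transgene, and the comparisons below follow each mutation alone and both together.

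Blood stem cells lodge in the marrow by holding on to matrix and to neighbouring cells, through integrins, proteoglycans and adhesion molecules of the immunoglobulin family. Stromal cells secrete most of the fibrillar collagen and fibronectin of that niche, whereas basement membranes, thin sheets built from laminins, type IV collagen, nidogens and perlecan, lie under endothelium. Haematopoietic cells also transcribe some matrix genes themselves, among them Matn4, whose product matrilin-4 is known from work on stem cells under stress.

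Libraries held 82.99 to 127.6 M counts assigned to genes. Levels are given as CPM, counts scaled to M counts of library after TMM correction of library sizes, and fold changes as the log2 values of edgeR's fit to all 16 libraries. In bulk RNA, fewer cells of one kind and less RNA per cell cannot be told apart. Kit (698 to 1211 CPM), Cd34 (738 to 1002 CPM) and Ly6a, the gene for Sca-1 (23.2 to 54.3 CPM), were present in every library. Flt3, also on the list of 10 LSK markers, had a WT median of 604 CPM (range 319 to 704). Its median was lower in each mutant group: Asxl1Tg 275 (256 to 416), Srsf2P95H 319 (297 to 407), DM 307 (203 to 337). These ranges overlapped that of WT. Of the 10 markers, edgeR's quasi-likelihood test called 1 lower in DM, beside 4.73% of all genes tested. It called none in either single mutant, beside 1.88% of all genes in Asxl1Tg and 0.506% in Srsf2P95H. The part of a shift within the LSK fraction in the levels below was not tested. Asxl1 lay between 205 and 236 CPM and Srsf2 between 173 and 294 CPM over all groups, and in edgeR's quasi-likelihood test neither was called in any mutant group against WT, so gene counts do not check either genotype. Xist, which coats the inactive X chromosome, was high in 5 libraries (WT 1, Asxl1Tg 3, Srsf2P95H 2, Srsf2P95H 3 and DM 1, from 1570 to 2310 CPM) and at most 2.11 CPM in the rest. WT 1 was thus the only WT library of that kind, and WT 4 had the highest sums of B-lineage (162 CPM over 11 genes) and eosinophil markers (1580 CPM over 9 genes) of the 16 libraries. Results of the 10 genes and counts of called list genes that rest on WT 1 or WT 4 are given with and without them.

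The genes fell into 3 patterns, with 2 genes beside them. Matn4, Pxdn and Kirrel were high with the transgene, Bgn was high in the double mutants, and Postn, Sdc4 and Chl1 were low in every mutant group. Fn1 differed little, and the reference genes Col1a1 and Col1a2 varied more within groups than between them. In Asxl1Tg against WT, 3 of the 10 genes were higher in all 4 mutant libraries than in any WT library, beside 3.71% of all 22749 genes tested, and 2 of 10 were lower, beside 5.28%. In Srsf2P95H against WT, 1 gene was higher (background 8.33%) and none lower (5.4%). In DM against WT, 4 genes were higher (9.29%) and 2 lower (9.35%). All 3 comparisons share the WT libraries, and since 8 genes were chosen on such differences, nothing is read from these shares.

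**Figure D1:**
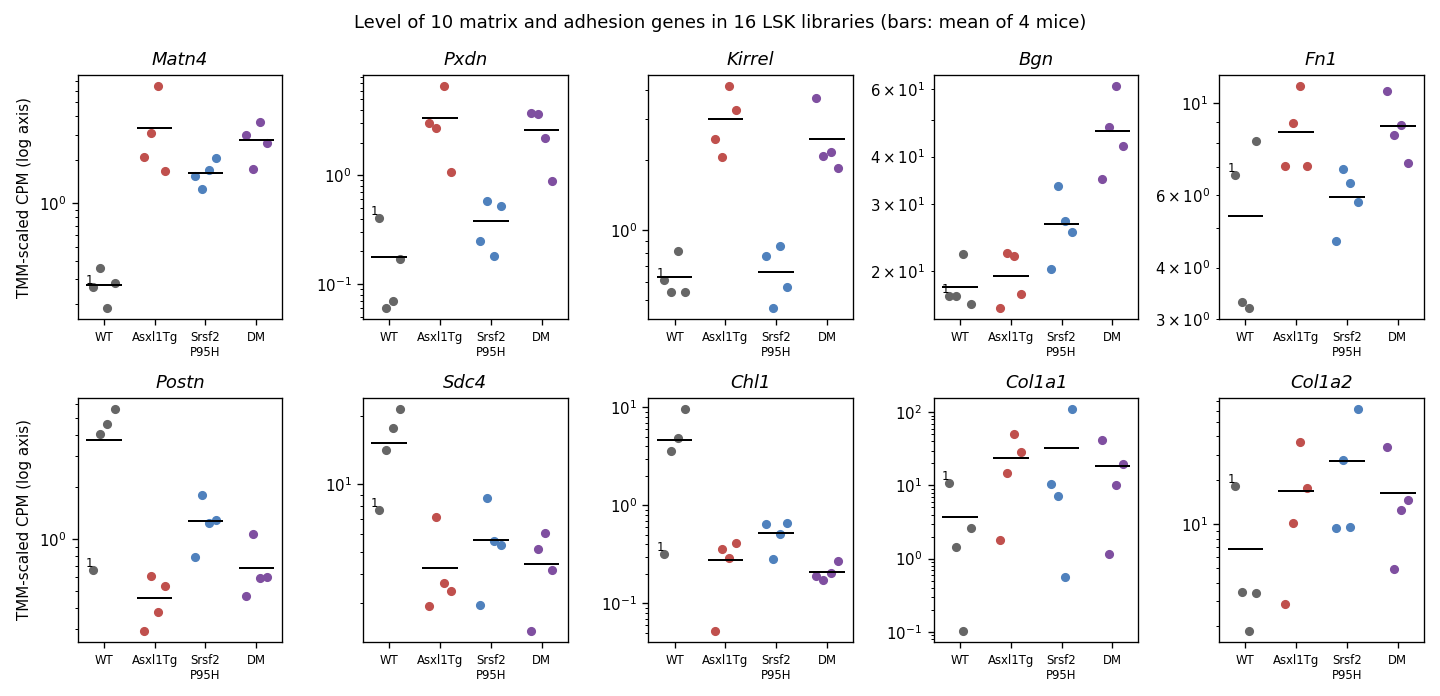
Level of each gene in each library, in TMM-scaled CPM on a log axis. Points are single mice in replicate order, horizontal bars are means of 4 mice, and the mark 1 shows WT 1, which lies below the other WT libraries for Postn, Sdc4 and Chl1 and above them for Pxdn, Col1a1 and Col1a2.

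**Figure D2:**
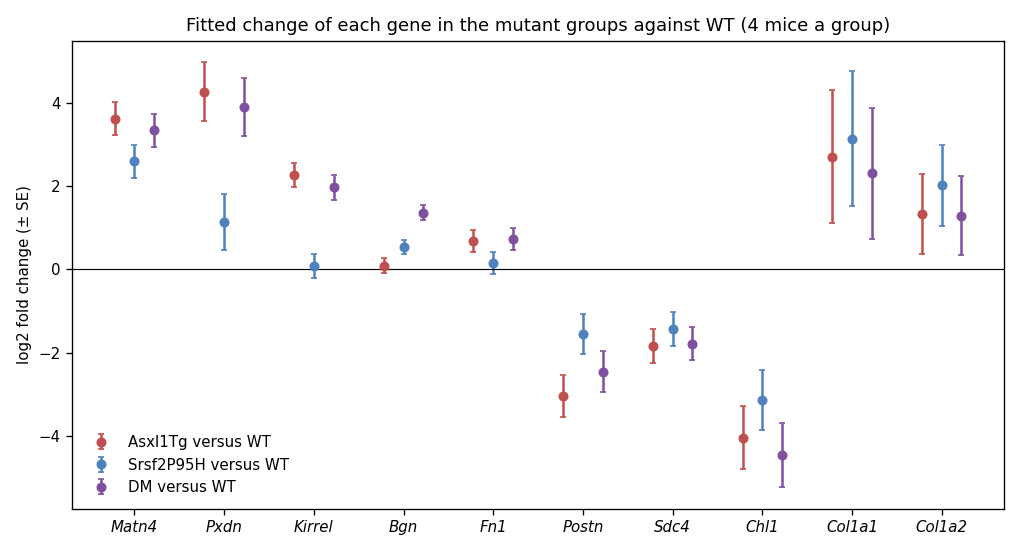
Log2 fold change of each gene in the 3 mutant groups against WT, with the SE of the fit as error bars. Matn4 is positive in all 3 groups, Pxdn and Kirrel are near 2 or above only where the transgene is present, and the bars of Col1a1 are the widest.

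Matn4 codes for matrilin-4, an adapter protein that links other matrix components into filaments. It lies on chr2:164389393-164405160 (GRCm38, minus strand). In WT it stood at 0.265, 0.360, 0.188 and 0.280 CPM in libraries 1 to 4. The Asxl1Tg libraries had 2.10, 3.05, 6.51 and 1.67 CPM. The Srsf2P95H libraries had 1.55, 1.25, 1.70 and 2.05 CPM. Every mutant library was thus above every WT library, also those with the Srsf2 mutation alone. In DM the values were 3.00, 1.73, 3.64 and 2.61 CPM, inside the Asxl1Tg range. The fitted log2 change was 3.61 (SE 0.40, 12.2-fold) in Asxl1Tg, 2.59 (SE 0.39, 6.01-fold) in Srsf2P95H and 3.33 (SE 0.40, 10.1-fold) in DM. Asxl1Tg 3 was the highest library, and without it the change in Asxl1Tg was 3.06. The WT values rest on 23 to 31 reads per library.

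Promoter windows are shown for Matn4, Pxdn and Kirrel, which were high together, and for Sdc4, which lies beside Matn4 and moved the opposite way. They were taken from RefSeq (GRCm38.p6), which held 8 of the 10 genes, and run from 250 bases before to 50 bases after the RefSeq start on the gene's strand, at chr2:164405111-164405410 (minus) for Matn4, chr2:164443139-164443438 (minus) for Sdc4, chr12:29937786-29938085 (plus) for Pxdn and chr3:87174488-87174787 (minus) for Kirrel. Capitals mark the matches, on either strand, to 5 words that were searched. These were the GC box word GGGCGG, the word CCAAT of the box of that name, the TATA box word TATAAA, the core RUNX word TGTGGT and the E box word CAGCTG. No matches share letters in these 4 windows.
Matn4: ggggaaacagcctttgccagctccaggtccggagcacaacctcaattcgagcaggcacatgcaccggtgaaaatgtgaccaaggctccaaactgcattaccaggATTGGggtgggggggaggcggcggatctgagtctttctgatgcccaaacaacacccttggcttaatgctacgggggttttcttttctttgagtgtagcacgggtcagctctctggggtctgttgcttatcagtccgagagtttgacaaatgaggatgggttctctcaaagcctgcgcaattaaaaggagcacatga
Sdc4: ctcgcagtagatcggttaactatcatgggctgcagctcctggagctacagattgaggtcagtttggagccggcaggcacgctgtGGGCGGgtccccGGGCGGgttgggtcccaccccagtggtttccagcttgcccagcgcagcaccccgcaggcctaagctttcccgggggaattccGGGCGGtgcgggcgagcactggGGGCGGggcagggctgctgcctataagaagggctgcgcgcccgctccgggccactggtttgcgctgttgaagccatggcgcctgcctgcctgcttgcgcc
Pxdn: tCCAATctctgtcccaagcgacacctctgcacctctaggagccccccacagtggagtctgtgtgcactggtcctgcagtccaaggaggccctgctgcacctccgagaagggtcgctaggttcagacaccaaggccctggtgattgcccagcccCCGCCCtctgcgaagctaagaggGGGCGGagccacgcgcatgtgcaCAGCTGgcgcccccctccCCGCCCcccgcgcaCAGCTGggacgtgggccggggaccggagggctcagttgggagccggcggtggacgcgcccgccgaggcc
Kirrel: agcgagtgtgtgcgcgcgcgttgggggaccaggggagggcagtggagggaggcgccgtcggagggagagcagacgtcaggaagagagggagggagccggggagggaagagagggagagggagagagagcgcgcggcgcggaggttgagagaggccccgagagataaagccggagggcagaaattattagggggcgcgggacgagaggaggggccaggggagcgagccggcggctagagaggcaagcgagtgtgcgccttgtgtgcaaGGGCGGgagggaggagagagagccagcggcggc
The Matn4 window held 1 CCAAT word, read on the other strand, and no GC box, and its GC content of 52.7% equalled the median of all promoters in the table. Sdc4 had 4 GC boxes at 67.7% GC. Pxdn had 3 GC boxes, 1 CCAAT word and 2 E boxes at 70.0% GC, and Kirrel had 1 GC box at 69.3% GC. Of all 32817 windows of this length, 35.6% held the GC box word, 37.4% the CCAAT word, 13.6% the TATA word, 16.8% the RUNX word and 16.3% the E box word, so none of the words was rare. None of the 5 words was common to the windows of all 3 genes that were high together. The starts used by RefSeq and by GENCODE differed by 0 bases for Matn4, 210 for Kirrel, 428 for Pxdn and 699 for Sdc4.

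Pxdn codes for peroxidasin, a haem peroxidase that forms the sulfilimine crosslinks of type IV collagen. The gene lies on chr12:29937608-30017658 (plus strand). WT libraries 1 to 4 had 0.404, 0.0600, 0.0705 and 0.172 CPM, which is 5 to 35 reads. Asxl1Tg libraries had 3.04, 2.72, 6.63 and 1.08 CPM. DM libraries had 3.72, 3.63, 2.19 and 0.888 CPM. All 8 libraries with the transgene lay above all 8 without it. Srsf2P95H libraries, at 0.250, 0.575, 0.182 and 0.526 CPM, overlapped WT. The log2 change against WT was 4.26 (SE 0.71, 19.2-fold) in Asxl1Tg, 3.89 (SE 0.70, 14.8-fold) in DM and 1.13 (SE 0.67, 2.18-fold) in Srsf2P95H. WT 1 was the highest WT library, and without it these values became 5.03, 4.66 and 1.90, each a fold change about 1.71 times as large.

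Kirrel codes for an adhesion molecule of the immunoglobulin family related to nephrin, known from the slit diaphragm of the kidney. It lies on chr3:87078593-87174747 (minus strand). WT libraries had 0.612, 0.540, 0.815 and 0.543 CPM. Srsf2P95H libraries had 0.770, 0.460, 0.850 and 0.567 CPM, which spanned the WT range. Asxl1Tg libraries had 2.48, 2.07, 4.18 and 3.30 CPM. DM libraries, at 3.71, 2.09, 2.18 and 1.85 CPM, overlapped Asxl1Tg and exceeded every library without the transgene. The log2 change was 2.26 (SE 0.29, 4.78-fold) in Asxl1Tg and 1.96 (SE 0.29, 3.90-fold) in DM. In Srsf2P95H it was 0.08 (SE 0.29), and its sign turned when libraries were scaled by size alone.

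The transgene can be followed on 2 genetic backgrounds whose comparisons share no library: Asxl1Tg against WT, and DM against Srsf2P95H. In the second, 4 of the 10 genes were higher in all DM libraries (Pxdn, Kirrel, Bgn and Fn1; background 2.86%) and 1 was lower (Chl1; background 1.42%). Most of the 10 genes were picked on differences between genotypes in these same libraries. The second comparison is therefore no independent repeat of the first, and nothing is read from these shares. Kirrel changed by 2.26 (SE 0.29) on the wild-type and by 1.89 (SE 0.29) on the Srsf2P95H background. For Pxdn the values were 4.26 (SE 0.71) and 2.77 (SE 0.66). Matn4, already high with the Srsf2 mutation alone, changed by 3.61 (SE 0.40) and by 0.74 (SE 0.36), and DM overlapped Srsf2P95H. The difference between both values, the interaction on the log2 scale, was -2.87 (SE 0.52) for Matn4, -1.5 (SE 0.90) for Pxdn and -0.37 (SE 0.40) for Kirrel. Over all genes, edgeR called 0% of 22749 genes for the interaction, with 2670 at an unadjusted p under 0.05.

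Bgn codes for biglycan, a small leucine-rich proteoglycan of the matrix that binds collagen and TGF-beta. It lies on chrX:73483602-73495933 (plus strand). WT libraries had 17.2, 17.2, 22.2 and 16.4 CPM, and Asxl1Tg libraries 16, 22.3, 22 and 17.4 CPM. Those 2 groups covered the same range. Srsf2P95H libraries had 20.3, 33.4, 27.1 and 25.4 CPM, of which 3 lay above every WT library. DM libraries had 35.0, 47.9, 61.3 and 42.7 CPM, each above all 12 other libraries. The log2 change against WT was 0.09 (SE 0.17) in Asxl1Tg, 0.54 (SE 0.17) in Srsf2P95H and 1.36 (SE 0.18, 2.56-fold) in DM. DM was 2.41-fold above Asxl1Tg (log2 1.27, SE 0.18) and 1.76-fold above Srsf2P95H (log2 0.82, SE 0.17). Bgn was the only one of the 10 genes whose DM libraries all exceeded Asxl1Tg, beside 7.35% of all genes, and none was lower throughout (4.16%). Since Bgn was chosen on differences between genotypes, nothing is read from these shares either. The interaction was 0.73 (SE 0.25). Of the Xist-high libraries, Srsf2P95H 2 and 3 were the highest of their group for this X-linked gene, DM 1 was the lowest of its group, Asxl1Tg 3 (22 CPM) was the second highest of its group and WT 1 was inside the WT range.

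Fn1 codes for fibronectin, the matrix ligand of integrins alpha-4 beta-1 and alpha-5 beta-1, and lies on chr1:71585520-71653200 (minus strand). WT libraries had 6.69, 3.30, 3.19 and 8.11 CPM and spanned most of the values seen elsewhere. Asxl1Tg libraries had 7.03, 8.95, 11 and 7.05 CPM. Srsf2P95H libraries had 4.63, 6.92, 6.41 and 5.78 CPM. DM libraries had 10.7, 8.39, 8.86 and 7.16 CPM. Every mutant group overlapped WT, and the log2 change was 0.68 (SE 0.27) in Asxl1Tg, 0.16 (SE 0.26) in Srsf2P95H and 0.72 (SE 0.27) in DM. Without WT 4 the values were 0.96, 0.44 and 1.0. DM exceeded Srsf2P95H in all libraries, by 1.48-fold (log2 0.57, SE 0.26). An antisense gene on the other strand, Apol7d, overlaps Fn1 exons but held at most 6 reads per library beside 275 to 1193 for Fn1.

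Postn codes for periostin, a secreted matricellular protein that binds integrins and is known from periosteum and fibrosis. It lies on chr3:54361109-54391037 (plus strand). WT libraries had 0.658, 4.01, 4.63 and 5.64 CPM, so that WT 1 stood far below the other WT libraries. Asxl1Tg libraries had 0.293, 0.613, 0.379 and 0.535 CPM, all below WT. Srsf2P95H libraries had 0.780, 1.80, 1.23 and 1.28 CPM. DM libraries had 0.468, 1.06, 0.596 and 0.600 CPM. Both of these groups overlapped WT through WT 1 alone. The log2 value was -3.03 (SE 0.50, 8.19-fold lower) in Asxl1Tg, -1.55 (SE 0.47, 2.93-fold lower) in Srsf2P95H and -2.46 (SE 0.49, 5.49-fold lower) in DM. Without WT 1 it was -3.38, -1.90 and -2.80. Without WT 4, the highest WT library, it was -2.77, -1.28 and -2.19.

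Sdc4 codes for syndecan-4, a transmembrane heparan sulfate proteoglycan that acts as a co-receptor for fibronectin at focal adhesions. It lies on chr2:164424247-164443887 (minus strand). WT libraries had 7.69, 14.1, 17.7 and 21.5 CPM. Asxl1Tg libraries had 2.89, 7.19, 3.67 and 3.39 CPM, and DM libraries 2.25, 5.20, 6.07 and 4.2 CPM. All 8 transgenic libraries lay below the lowest WT library, WT 1. Srsf2P95H libraries, at 2.92, 8.71, 5.63 and 5.38 CPM, overlapped it through library 2. The log2 value was -1.83 (SE 0.40, 3.56-fold lower) in Asxl1Tg, -1.43 (SE 0.40, 2.7-fold lower) in Srsf2P95H and -1.78 (SE 0.40, 3.44-fold lower) in DM, so the 3 mutant groups lay within about 1 SE of one another. Without WT 1 it was -2.05, -1.65 and -2.0. Without WT 4, the highest WT library, it was -1.62 in Asxl1Tg and -1.22 in Srsf2P95H. In DM it was -1.57 without both WT 4 and Srsf2P95H 2.

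Chl1 codes for the close homologue of L1, a neural adhesion molecule of the immunoglobulin family. It lies on chr6:103510586-103750211 (plus strand). WT libraries had 0.323, 3.60, 4.92 and 9.70 CPM, a 30.0-fold spread within 1 group. Asxl1Tg libraries had 0.0523, 0.361, 0.292 and 0.418 CPM. Srsf2P95H libraries had 0.640, 0.287, 0.506 and 0.660 CPM. WT 1 overlapped both groups, and the other WT libraries were above all 12 mutant libraries. DM libraries, at 0.189, 0.173, 0.207 and 0.271 CPM, lay below every WT and every Srsf2P95H library. The log2 value was -4.04 (SE 0.76, 16.4-fold lower) in Asxl1Tg, -3.14 (SE 0.72, 8.84-fold lower) in Srsf2P95H and -4.46 (SE 0.77, 21.9-fold lower) in DM. Without WT 1 it was -4.43, -3.53 and -4.84, and without WT 4 it was -3.39, -2.49 and -3.80, fold changes about 1.57 times smaller.

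Within the WT group, Postn, Sdc4 and Chl1 were all lowest in WT 1 and all highest in WT 4. Summed B-lineage markers had the same extremes, with 31.7 CPM in WT 1 and 162 CPM in WT 4. Between them the order differed. WT 3 had a lower B-lineage sum (36.8 CPM) than WT 2 (60 CPM), but more Postn, Sdc4 and Chl1. The B-lineage sums were 33.4 to 48.2 CPM in Asxl1Tg, 33.2 to 45.7 CPM in Srsf2P95H and 32.0 to 49.0 CPM in DM. Summed eosinophil markers were 42.8 to 1580 CPM in WT, 48.9 to 312 CPM in Asxl1Tg, 78.0 to 486 CPM in Srsf2P95H and 59.4 to 124 CPM in DM. Their lowest WT library was WT 3, and WT 1 stood at 311 CPM. No marker of the B-lineage list (11 genes) or the eosinophil list (9 genes) was called in any mutant group against WT by edgeR's quasi-likelihood test. Of all genes, 1.88% were called in Asxl1Tg, 0.506% in Srsf2P95H and 9.39% in DM. Nothing is read from the lack of calls in lists this short. The median log2 change of the B-lineage list was -1.89 in Asxl1Tg, -1.78 in Srsf2P95H and -1.73 in DM, and that of the eosinophil list -2.01, -1.25 and -2.46. These medians include WT 4, the WT library highest for both lists, and are not given without it. Within the B-lineage sums, Cd79b alone was at 21.3 to 30.5 CPM over all 16 libraries. At most 1 B-lineage marker, and no eosinophil marker, was at 0 in any library. The part of these cells in the 3 genes' levels was not tested.

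Matn4 and Sdc4 are neighbours on chromosome 2, transcribed in the same direction with 19.09 kb between them, and moved in opposite directions in all 3 mutant groups. The genes around them were not called by edgeR's quasi-likelihood test. Slpi, a secreted protease inhibitor gene 0.30 kb beyond the end of Matn4, had log2 values of 0.29 (SE 0.39, adjusted p 0.718) in Asxl1Tg and 0.83 (SE 0.39, adjusted p 0.169) in DM. Sys1, a Golgi protein gene 13.08 kb beyond Sdc4, had -0.06 (SE 0.08, adjusted p 0.715) and 0.04 (SE 0.08, adjusted p 0.771). Rbpjl lies between them on the opposite strand and overlaps Matn4 exons. It held 0 to 45 reads per library beside 23 to 602 for Matn4, with log2 values of 2.63 (SE 0.82, adjusted p 0.0907) in Asxl1Tg and 1.73 (SE 0.82, adjusted p 0.164) in DM. The strand setting of the counting is not given, so reads of Rbpjl and Matn4 in the shared exons cannot be told apart. Of the protein-coding genes that lie next to the 10 genes, are not among them and could be tested, none was called by edgeR in Asxl1Tg, Srsf2P95H or DM against WT. The shares of all genes called were 1.88%, 0.506% and 9.39%, so nothing is read from so few neighbours. Atic, next to Fn1, was close to a call, with log2 values of 0.45 in Srsf2P95H and 0.40 in DM (edgeR adjusted p 0.0599 and 0.0508).

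**Figure D3:**
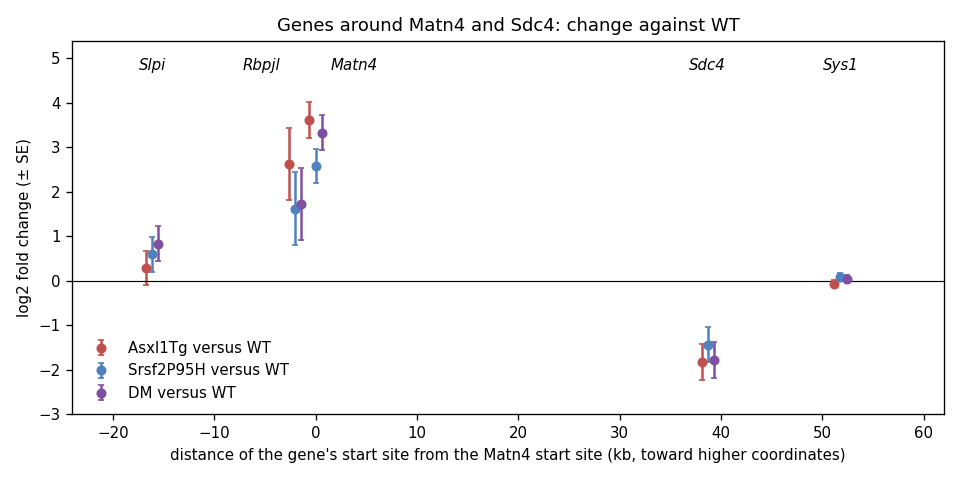
Log2 fold change against WT, with SE, of 5 genes placed by the distance of their start site from that of Matn4. Matn4 lies between 2.59 and 3.61 and Sdc4 between -1.83 and -1.43, while Sys1 stays within 0.09 of 0.

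Col1a1 and Col1a2 encode the chains of type I collagen, the main product of osteoblasts and fibroblasts. Col1a1 (chr11:94936224-94953042, plus strand) stood at 10.7, 1.46, 0.102 and 2.63 CPM in WT and at 1.81, 14.8, 50.4 and 28.7 CPM in Asxl1Tg. Srsf2P95H libraries had 10.4, 7.15, 0.556 and 112 CPM, and DM libraries 41.9, 1.16, 10.1 and 19.6 CPM. The groups overlapped, and the highest library was 1098-fold above the lowest. Col1a2 (chr6:4504814-4541544, plus strand) had 18.4, 3.42, 1.86 and 3.39 CPM in WT and 2.86, 10.2, 36.6 and 17.8 CPM in Asxl1Tg. Srsf2P95H libraries had 9.45, 27.7, 9.66 and 61.9 CPM, and DM libraries 33.6, 4.98, 12.5 and 14.6 CPM. In edgeR's quasi-likelihood test Col1a1 in DM gave 2.30 (SE 1.57, adjusted p 0.347) and Col1a2 gave 1.28 (SE 0.95, adjusted p 0.387). In Asxl1Tg the same test gave 2.7 (SE 1.60, adjusted p 0.356) and 1.32 (SE 0.95, adjusted p 0.455), and in Srsf2P95H 3.14 (SE 1.62, adjusted p 0.249) and 2.01 (SE 0.97, adjusted p 0.217). The means of all mutant groups were above WT, and neither gene was called in any of them. Without WT 1, Col1a1 gave 4.11 in Asxl1Tg, 4.55 in Srsf2P95H and 3.71 in DM, and Col1a2 gave 2.55, 3.24 and 2.51, so the fold changes were 2.66 and 2.34 times as large. Without Srsf2P95H 4, Col1a1 in Srsf2P95H gave 0.71, a fold change 5.38 times smaller. Neither gene was called in edgeR's quasi-likelihood test under these settings either.

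Of the other stromal markers, some were low. Col3a1 was at most 0.369 CPM and at 0 in 2 libraries. Dcn was at most 0.505 CPM and at 0 in 2, and Lum at most 0.292 CPM and at 0 in 5. Sparc reached 12.1 CPM. Its WT median was 1.45 CPM, and each mutant median was higher (Asxl1Tg 4.44, Srsf2P95H 2.67, DM 2.93). Cxcl12 went the other way and reached 7.65 CPM in a WT library. Its WT median was 1.95 CPM, and each mutant median was lower (Asxl1Tg 1.24, Srsf2P95H 0.834, DM 0.332). For both genes every mutant range overlapped that of WT. The list's sum was carried by Runx2 and Pdgfrb, and its remaining 14 genes, type I collagen left out, summed to 1.67 to 14.4 CPM in WT, 6.79 to 15.1 CPM in Asxl1Tg, 3.87 to 15.5 CPM in Srsf2P95H and 2.94 to 13.9 CPM in DM. These ranges overlapped, as did those of type I collagen. Of the 16 stromal markers other than type I collagen, 14 were tested. Their median log2 change against WT was -0.01 (Asxl1Tg), -0.04 (Srsf2P95H) and -0.67 (DM). None was called higher by edgeR in Asxl1Tg, Srsf2P95H or DM, beside 1.12%, 0.264% and 4.65% of all genes. The 1 called lower, in Asxl1Tg (beside 0.76% of all genes), was Runx2, a transcription factor gene that blood progenitors also express. In Asxl1Tg the library with the most Matn4, Pxdn, Kirrel and Fn1, library 3, was also the one with the most Col1a1 and Col1a2. In DM library 1 had the most Pxdn, Kirrel, Fn1, Col1a1 and Col1a2. In Srsf2P95H library 4, at 112 CPM of Col1a1, Kirrel was at 0.567 CPM and Pxdn at 0.526 CPM, both inside the range of their group, while Matn4 at 2.05 CPM was the highest of its group. WT 1, the WT library with the most Col1a1 and Col1a2, was also the WT library with the most Pxdn. The part of stromal cells in the levels of the 8 chosen genes was not tested.

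Per kb of exon, the order of the 10 genes in WT was Sdc4 (5.99 CPM per kb), Bgn (3.00), Col1a1 (0.566), Col1a2 (0.544), Fn1 (0.455), Postn (0.429), Chl1 (0.377), Kirrel (0.0840), Matn4 (0.0529) and Pxdn (0.0183). The 5 genes from Col1a1 to Chl1 lay closer together than the spread of Chl1 or Col1a1 over the WT mice. In DM the order per kb began with Bgn (7.67), Col1a1 (2.77) and Sdc4 (1.74), and Chl1 was last (0.0171). Matn4 stood at 0.531 CPM per kb in DM, above Postn at 0.0782, where the order of both genes in WT was the reverse.

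The rest of the matrix and adhesion genes were taken from 10 textbook lists. These lists were chosen with earlier results of these data known, so their shares below are a description and no independent test. They held 349 genes other than the 10 described here, of which 348 were in the table and 263 were tested. In Asxl1Tg against WT edgeR's quasi-likelihood test called 13 of them higher and 1 lower, 5.32% beside 1.88% of all genes (1.12% higher and 0.76% lower). In Srsf2P95H it called 3, all higher, 1.14% beside 0.506% (0.264% higher and 0.242% lower). In DM it called 37 higher and 11 lower, 18.3% beside 9.39% (4.65% higher and 4.73% lower). The median log2 change of the 263 genes was 0.17 in Asxl1Tg, 0.03 in Srsf2P95H and 0.04 in DM, beside -0.04, -0.05 and -0.02 over all genes. These counts moved with single mice, and so did the share of all genes called, given in brackets. In Asxl1Tg they went from 14 to 32 without WT 1 (4.1%), 9 without WT 4 (0.637%) and 34 without Asxl1Tg 2 (10%). In Srsf2P95H they went from 3 to 36 without WT 1 (7.06%), 19 without Srsf2P95H 2 (6.6%) and 0 or 1 without any 1 of WT 2, WT 3, WT 4, Srsf2P95H 1, 3 or 4 (0% to 0.112%). In DM they went from 48 to between 22 and 31 without any 1 of WT 2, WT 3, WT 4, DM 1, DM 2 or DM 4 (2.52% to 5.11%).

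**Figure D4:**
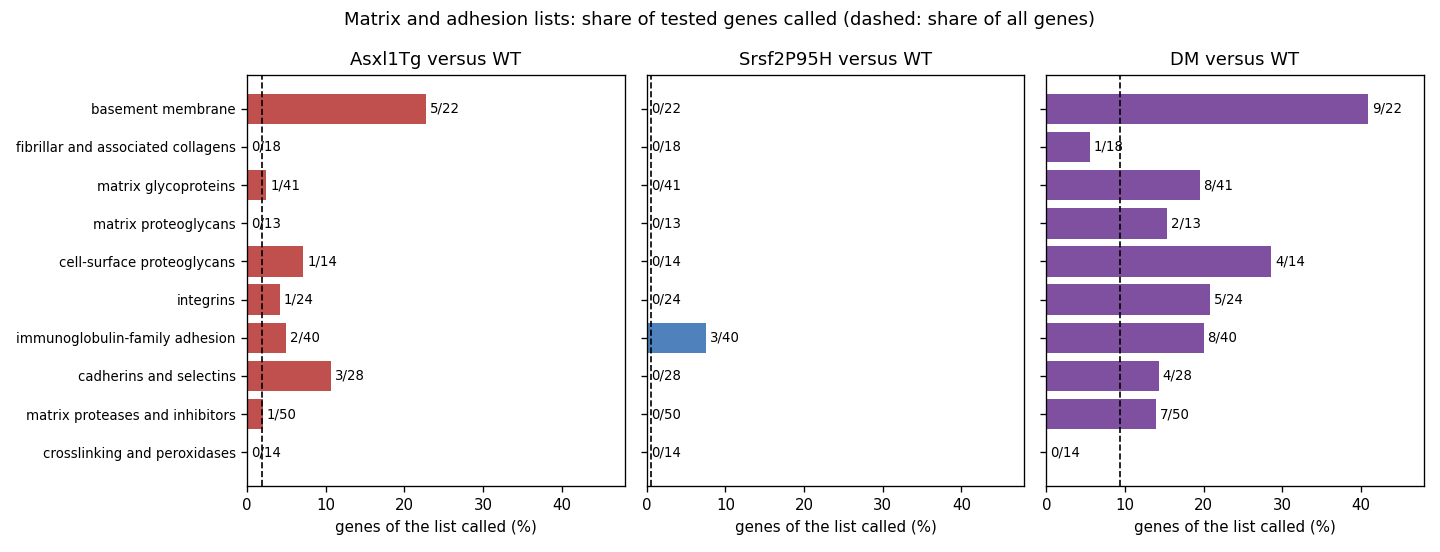
Percent of the tested genes of each list that were called (adjusted p under 0.05) in each mutant group against WT, with called and tested genes beside each bar. The dashed line is the percent over all 22749 genes, and the basement membrane list has the longest bar in Asxl1Tg (5 of 22) and in DM (9 of 22).

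Part of the basement membrane genes rose in both groups with the transgene, and some of these also had higher means in Srsf2P95H. Of 22 tested, 5 were higher and none lower in Asxl1Tg (22.7%, beside 1.88% of all genes) and 9 were higher and none lower in DM (40.9%, beside 9.39%). The list's median log2 change was 0.53 in Asxl1Tg and 0.61 in DM, beside -0.04 and -0.02 over all genes. In Srsf2P95H none passed the edgeR test, and the median was 0.16. There 5 of the list had an unadjusted p under 0.05 (22.7%, beside 25.3% of all genes), all higher (beside 14.2%). DESeq2 called 5 (22.7%, beside 11.4% of all genes), and edgeR called 5 without WT 1 (beside 7.06%). In DM against Srsf2P95H 1 gene of the list was called (4.55%, beside 0.246% of all genes), 7 were higher and 1 lower at an unadjusted p under 0.05 (36.4% in all, beside 3.93% of all genes higher and 2.55% lower), and the median was 0.33.

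Lama5, the laminin alpha-5 chain, was the gene called in that comparison. It had 5.78 to 15.3 CPM in WT and 7.85 to 11.8 CPM in Srsf2P95H, but 25.9 to 34.2 CPM in Asxl1Tg and 17.8 to 31.6 CPM in DM, so libraries with and without the transgene did not overlap. edgeR's log2 change was 1.71 (SE 0.25, adjusted p 0.00353) in Asxl1Tg, 1.54 (SE 0.25, adjusted p 0.00369) in DM, 0.12 (SE 0.25, adjusted p 0.801) in Srsf2P95H and 1.43 (SE 0.25, adjusted p 0.0272) in DM against Srsf2P95H. Col18a1, whose product is a collagen that carries heparan sulfate and yields endostatin, had 2.61 to 6.59 CPM in WT, 12 to 17.8 in Asxl1Tg, 6.34 to 11.6 in Srsf2P95H and 9.69 to 17.1 in DM. It rose 3.48-fold in Asxl1Tg (edgeR adjusted p 0.00277) and 3.03-fold in DM (adjusted p 0.0033). In Srsf2P95H it was 2.06-fold above WT, just short of a call (edgeR adjusted p 0.0572). Nid2, a nidogen that bridges laminin and collagen IV, went from 1.55 ± 0.17 CPM in WT (SD, n = 4) to 3.57 ± 0.74 in Asxl1Tg and 4.56 ± 0.67 in DM (edgeR adjusted p 0.00407 and 0.000467). Fbln1, a fibulin of basement membranes, went from 1.22 ± 0.40 CPM (SD, n = 4) to 3.70 ± 0.56 and 4.19 ± 1.24 (edgeR adjusted p 0.00578 and 0.0017). For Nid2 the Srsf2P95H mean was 2.55 ± 0.37 CPM and for Fbln1 it was 2.55 ± 0.66 CPM, between WT and the transgenic groups. These were 1.65-fold and 2.08-fold above WT, just short of a call (edgeR adjusted p 0.0580 and 0.0551).

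The remaining calls of this list, named after their values were seen, were Agrn (agrin) in Asxl1Tg and 5 genes in DM. Those 5 were Lama4 and the type IV collagen chains Col4a1, Col4a2, Col4a5 and Col4a6, the collagen that peroxidasin crosslinks. Col4a1 and Col4a2 were at 47.8 to 75.2 and 46.2 to 74.2 CPM in WT and at 81.7 to 112 and 72.4 to 115 CPM in DM (log2 0.60 and 0.61, SE 0.15 and 0.16, edgeR adjusted p 0.0224 and 0.0316). In Srsf2P95H the same genes stood at 91.3 to 103 and 95.1 to 102 CPM, as high as in DM. Col4a5 and Col4a6 were below 1 CPM in WT and rose by 1.35 (SE 0.27, edgeR adjusted p 0.00921) and 1.57 (SE 0.37, adjusted p 0.0196) in DM. Endothelial markers, 10 genes of cells that lie on basement membrane, summed to 148 to 236 CPM in WT, 165 to 374 CPM in Asxl1Tg, 169 to 251 CPM in Srsf2P95H and 219 to 297 CPM in DM. The highest of them were Tie1, with a median of 91.4 CPM in WT and 119 in DM, and Vwf, with 47.1 and 118. Vwf is also a marker of megakaryocytes. None of these 10 markers was called, beside 1.88% of all genes in Asxl1Tg, 0.506% in Srsf2P95H and 9.39% in DM. Cdh5 was between 0.11 and 3.50 CPM. The part of endothelial cells in the basement membrane genes was not tested.

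**Figure D5:**
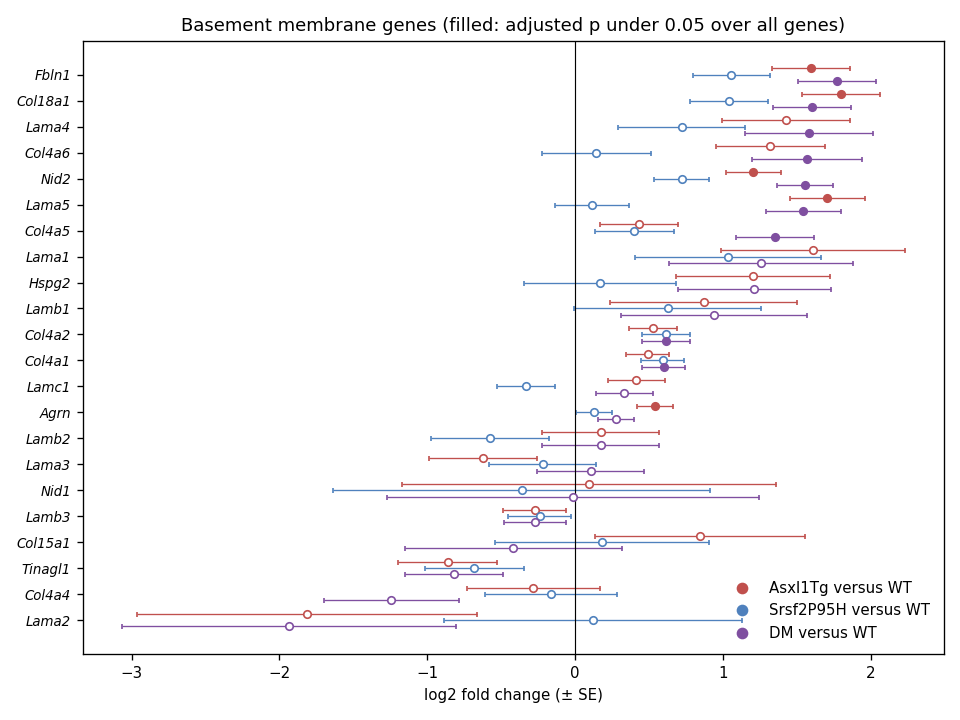
Log2 fold change with SE of the 22 tested basement membrane genes in the 3 mutant groups against WT, ordered by the value in DM. Filled points passed an adjusted p under 0.05; 5 are filled in Asxl1Tg, 9 in DM and none in Srsf2P95H, and all filled points are positive.

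Of 18 fibrillar and associated collagens tested, edgeR called none in Asxl1Tg (beside 1.88% of all genes) or Srsf2P95H (beside 0.506%). There 3 (16.7%) and 2 (11.1%) had an unadjusted p under 0.05, beside 21.5% and 25.3% of all genes. In DM 1 was lower (5.56%, beside 4.73% of all genes), Col9a2, named after its value was seen. Of the matrix crosslinking enzymes and peroxidases, the list to which peroxidasin's relatives belong, none of 14 was called in any mutant group by edgeR, where 3, 5 and 5 had an unadjusted p under 0.05 in Asxl1Tg, Srsf2P95H and DM. Those were 21.4%, 35.7% and 35.7% of the list, beside 21.5%, 25.3% and 30.6% of all genes.

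Among 41 matrix glycoproteins, the class of Matn4, Postn and Fn1, 1 was higher in Asxl1Tg (2.44%, beside 1.88% of all genes). In DM 6 were higher and 2 lower (19.5%, beside 9.39%). Ltbp4, which stores latent TGF-beta in the matrix, went from 4.10 ± 0.86 CPM in WT (SD, n = 4) to 10.1 ± 1.84 in Asxl1Tg and 9.83 ± 1.0 in DM (edgeR adjusted p 0.00271 and 0.00184). In Srsf2P95H it was 1.70-fold above WT, just short of a call (edgeR adjusted p 0.0551). Emilin1, an elastin-associated glycoprotein, rose 1.34-fold in DM, from 151 ± 19.1 to 202 ± 17.6 CPM (edgeR adjusted p 0.0146). Ecm1 rose 2.14-fold (edgeR adjusted p 0.0202). The DM calls of Emilin1 and Ecm1 were lost in 1 and 4 of 16 other settings. Comp, the cartilage oligomeric protein, fell 2.48-fold to 0.329 ± 0.0578 CPM (edgeR adjusted p 0.00921). Of 13 matrix proteoglycans, the class of Bgn, none was called in either single mutant, with 1 (7.69%) and 2 (15.4%) at an unadjusted p under 0.05 in edgeR, beside 21.5% and 25.3% of all genes. In DM Srgn (serglycin, the proteoglycan of haematopoietic granules) rose 1.31-fold from 421 ± 73.6 CPM (edgeR adjusted p 0.0364) and Prg4 (lubricin) fell 2.14-fold (adjusted p 0.0483). These calls were lost in 7 and 9 of 16 other settings.

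Of 14 cell-surface proteoglycans, the class of Sdc4, 1 was higher in Asxl1Tg (7.14%, beside 1.88% of all genes). In DM 3 were higher and 1 lower (28.6%, beside 9.39%). Sdc2, a relative of Sdc4, rose in DM: it went from 6.90 ± 2.7 CPM in WT (SD, n = 4) to 19.7 ± 3.26 in DM (log2 1.51, SE 0.34, edgeR adjusted p 0.0191). It was not called in Asxl1Tg or Srsf2P95H (edgeR adjusted p 0.275 and 0.297). Gpc3, a glypican, rose 2.90-fold in Asxl1Tg (edgeR adjusted p 0.0147) and 1.96-fold in DM (adjusted p 0.0459). In Srsf2P95H it was 2.28-fold above WT, just short of a call (edgeR adjusted p 0.0551). Tgfbr3, the TGF-beta co-receptor betaglycan, rose 1.64-fold in DM to 91.3 ± 17.0 CPM (edgeR adjusted p 0.00668), and Cspg5 fell 2.90-fold to 0.816 ± 0.149 CPM (adjusted p 0.0143). Tgfbr3 was also 1.41-fold higher in Srsf2P95H and 1.32-fold higher in Asxl1Tg, without a call (edgeR adjusted p 0.058 and 0.102). The calls of Sdc2 in DM and of Gpc3 in Asxl1Tg were each lost in 4 of 16 other settings, and that of Gpc3 in DM in 9.

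Of 24 integrins, the receptors for fibronectin, laminin and periostin, 1 was called in Asxl1Tg (4.17%, beside 1.88% of all genes), Itga2, a collagen receptor chain, which fell 1.89-fold from 16.7 ± 3.26 CPM (SD, n = 4, edgeR adjusted p 0.0292; lost in 7 of 16 other settings). In DM 4 were higher and 1 lower (20.8%, beside 9.39%). Itga6, a laminin receptor chain, rose 1.41-fold from 213 ± 34.3 to 300.2 ± 21.2 CPM (edgeR adjusted p 0.0103), and Itga5, the fibronectin receptor chain, rose 1.25-fold to 80.5 ± 6.2 CPM (adjusted p 0.0313). Itgb3 rose 1.93-fold (edgeR adjusted p 0.0365) and Itgax, a myeloid integrin, fell 1.83-fold (adjusted p 0.0384). The fifth call, Itga2b of the platelet lineage, was named after its value was seen (log2 0.48, SE 0.14, edgeR adjusted p 0.0455). Of the first 4, only the call of Itga6 held in all 16 other settings; those of Itga5 and Itgax were lost in 7 and that of Itgb3 in 11.

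Of 40 adhesion molecules of the immunoglobulin family, the class of Kirrel and Chl1, 2 were higher in Asxl1Tg (5%, beside 1.88% of all genes). In Srsf2P95H 3 were higher (7.5%, beside 0.506%), and in DM 7 were higher and 1 lower (20%, beside 9.39%). Nectin1, a junctional adhesion molecule, was higher in every mutant group, with 11.4 ± 1.26 CPM in WT (SD, n = 4). It had 21.9 ± 2.28 CPM in Asxl1Tg, 16.9 ± 2.48 CPM with the Srsf2 mutation alone and 22 ± 1.85 CPM in DM (edgeR adjusted p 0.00078, 0.0388 and 0.000491). Ptprk, a receptor phosphatase that binds itself between cells, was high with the transgene, with 2.56 ± 0.17 CPM in WT and 2.85 ± 0.43 in Srsf2P95H but 5.93 ± 1.52 in Asxl1Tg and 5.52 ± 1.62 in DM (edgeR adjusted p 0.0107 in Asxl1Tg and 0.00921 in DM). Icam2, a ligand of leukocyte integrins, was high with the Srsf2 mutation, with 36.2 ± 3.80 CPM in WT and 41.3 ± 3.33 in Asxl1Tg but 50.4 ± 1.07 in Srsf2P95H and 52.3 ± 3.32 in DM (edgeR adjusted p 0.0183 in Srsf2P95H and 0.00183 in DM). In DM against Asxl1Tg its edgeR adjusted p was 0.0482. Neo1 (neogenin) rose 2.45-fold in Srsf2P95H (edgeR adjusted p 0.0401) and 2.41-fold in DM (adjusted p 0.0116). In Asxl1Tg it was 1.85-fold above WT, without a call (edgeR adjusted p 0.0808). In Srsf2P95H the calls of Icam2, Nectin1 and Neo1 were lost in 6, 9 and 7 of 16 other settings, while the calls of all 4 genes in DM held in all 16.

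Of 28 cadherins and selectins, 3 were higher in Asxl1Tg (10.7%, beside 1.88% of all genes) and 4 in DM (14.3%, beside 9.39%), with none lower. Fat1, an atypical cadherin, rose 3.43-fold in Asxl1Tg and 4.61-fold in DM (edgeR adjusted p 0.0295 and 0.00559). The desmosomal cadherin gene Dsg2 rose 3.33-fold and 2.81-fold (edgeR adjusted p 0.0126 and 0.0134), and Celsr2, a planar polarity cadherin, 2.19-fold and 1.92-fold (adjusted p 0.0116 and 0.0142). In Srsf2P95H Fat1, Dsg2 and Celsr2 were 2.07-fold, 1.84-fold and 1.24-fold above WT, without a call (edgeR adjusted p 0.108, 0.105 and 0.362). Dsc2, another desmosomal cadherin gene, rose 3.23-fold in DM (edgeR adjusted p 0.0317). In Asxl1Tg the calls of Fat1, Dsg2 and Celsr2 were lost in 6, 3 and 1 of 16 other settings, and that of Dsc2 in DM in 8. Of 50 matrix proteases and their inhibitors, 1 was higher in Asxl1Tg (2%, beside 1.88% of all genes). That was Bmp1, the procollagen C-proteinase, which rose 1.39-fold (edgeR adjusted p 0.0417, lost in 8 of 16 other settings). In DM 3 were higher and 4 lower (14%, beside 9.39%). Adam10, a sheddase of cadherins and Notch, rose 1.29-fold in DM against WT (edgeR adjusted p 0.00758) and 1.34-fold against Asxl1Tg (adjusted p 0.0121). Its mean was 287 ± 19.2 CPM in WT and 277 ± 9.96 CPM in Asxl1Tg (SD, n = 4). With the Srsf2 mutation it was 348 ± 29.4 CPM alone and 372 ± 14.2 CPM in DM. Adamts9 rose 1.91-fold in DM, while Adamts6 fell 2.03-fold and Mmp21 fell 3.03-fold (edgeR adjusted p 0.0308, 0.0249 and 0.0183). The calls of Adamts9 and Adamts6 were lost in 8 and 6 of 16 other settings, and that of Mmp21 in 3 of 15.

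In DM against Asxl1Tg, 2 list genes were called (0.76%, beside 1.08% of all genes, 0.848% higher and 0.229% lower), both higher, Adam10 and Icam2, and in DM against Srsf2P95H 2 were called (0.76%, beside 0.246%, 0.215% higher and 0.0308% lower), both higher, Timp2 and Lama5. Timp2, an inhibitor of matrix metalloproteinases named here after its value was seen, went from 28.3 ± 4.00 CPM in Srsf2P95H (SD, n = 4) to 46.6 ± 4.89 in DM (log2 0.72, SE 0.11, edgeR adjusted p 0.00734) and was at 37.2 ± 4.10 in WT. For the interaction edgeR called none of the 263, with 33 at an unadjusted p under 0.05, and DESeq2 called 1, Gpc3, named after its value was seen (log2 -1.77, DESeq2 adjusted p 0.00959).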

How the data were processed

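RNA of bead-enriched LSK cells from individual mice was sequenced (4 mice in each of 4 groups). The authors deposited whole-number counts per gene symbol in 1 table with 55291 genes. The tools named are Trimmomatic 0.38, STAR 2.7.0e and HTSeq 0.11.2 with mm10, per the submitters' processing notes. For annotation release and strand, the setting is not given in the sources used. Genes with enough reads (filterByExpr, minimum count 10) were fitted with edgeR 4.0.16 (R 4.3.3, TMM scaling, robust quasi-likelihood, 4 group means, all 16 libraries), with Benjamini-Hochberg adjustment over the 22749 genes tested; a call is an adjusted p under 0.05. The SE is the size of the log2 change divided by the root of the F statistic. The code was tested on simulated data. The members and lists were chosen with earlier results of these data known. Named were the 10 genes, per list and mutant group up to 4 called genes with a mean of 0.5 CPM or more, in the order of p, the 3 genes most alike to each of the 8 chosen genes, and adjacent genes. Alternatives were DESeq2 1.42.0, RLE factors, library size only, no filter, 1 CPM in 4 libraries, the compared groups only, a replicate block and libraries left out. Coordinates and exon lengths came from GENCODE M21 (GRCm38), promoters from RefSeq. All 16 columns were used. Same-numbered libraries were not treated as pairs.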

Additional observations from a re-analysis of the deposited data

Results flagged for a closer look

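Each of the 10 genes was looked at in each of the 4 groups, 40 sets of 4 libraries, for a library far from the other libraries of its group. Chance alone marks about 1 in 20 such sets, and 3 of 40 were marked. Bgn in WT 3 was at 22.2 CPM, where the other WT libraries were at 16.4 to 17.2 CPM. Col1a1 in Srsf2P95H 4 was at 112 CPM, where the others of that group were at 0.556 to 10.4 CPM. Col1a2 in WT 1 was at 18.4 CPM, where the other WT libraries were at 1.86 to 3.42 CPM.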

How the results depend on the processing

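For the 10 genes, 731 values were recomputed under other settings. For the 8 chosen genes a value counted as moved if it changed by 1 SE or more. For Col1a1 and Col1a2 it counted as moved only if the call or the sign changed. By these rules 13 values moved and 718 did not. The 718 include larger moves of type I collagen. Col1a1 in Srsf2P95H went from 3.14 (SE 1.62) to 0.71 without Srsf2P95H 4, and Col1a2 there from 2.01 (SE 0.97) to 3.24 without WT 1. The sign turned in 18 of the 731, all of values under 1 SE. Matn4 and Pxdn in DM against Asxl1Tg went to 0.27 and 0.19 without Asxl1Tg 3, and Fn1 in Srsf2P95H to -0.02 without WT 3. The others were Sdc4 and Fn1 in DM against Asxl1Tg and Kirrel and Fn1 in Srsf2P95H. Counts of called list genes moved more. DESeq2 called 42 (16%, beside 8.23% of all genes) in Asxl1Tg against WT, 39 (14.8%, beside 11.4%) in Srsf2P95H against WT, 12 (4.56%, beside 5.13%) in DM against Asxl1Tg, 10 (3.8%, beside 1.03%) in DM against Srsf2P95H and 1 (0.38%, beside 0.229%) for the interaction, and of the basement membrane list 9 in Asxl1Tg and 5 in Srsf2P95H. With the compared groups only, the counts were 6 in Asxl1Tg (3 of the basement membrane), 0 in Srsf2P95H and 0 in DM against Asxl1Tg; that fit could not be made for the interaction. Without both WT 4 and Srsf2P95H 2 they were 9 in Asxl1Tg, 7 in Srsf2P95H, 7 in DM against Asxl1Tg and 1 in DM against Srsf2P95H. DM against Asxl1Tg gave 1 with RLE factors, library size only, no filter or the stricter filter. With a replicate block 15 genes were called in Srsf2P95H (3 of the basement membrane) and 1 in DM against Asxl1Tg. Same-numbered libraries did not deviate together (correlations of -0.293 to 0.295 over 24 pairs; a library's best match shared its number in 3 of 16 cases), so the block is no pairing. Leaving out 1 library at a time gave 9 to 34 called in Asxl1Tg, 0 to 36 in Srsf2P95H, 22 to 58 in DM, 0 to 3 in DM against Asxl1Tg, 1 to 2 in DM against Srsf2P95H and 0 to 1 for the interaction; for the basement membrane list 4 to 7, 0 to 5 and 6 to 9. The cause was not tested. Settings for the basement membrane counts were added after seeing the data. With a median SE of 0.235 in Asxl1Tg against WT, changes near that size were not detectable, and the low counts of Pxdn, Matn4 and Chl1 limit their precision.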

Other observations

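Genes whose level followed the chosen genes most closely were looked for among 12167 genes with a mean of at least 1 CPM, by Pearson's r of log2 CPM over the 16 libraries. The libraries share group, depth and scaling, so r describes these libraries only. Evc2 was most alike to Pxdn (r = 0.92), and Evc was the third most alike to Kirrel (r = 0.94). Both code for proteins at the base of primary cilia. Evc was at 1.76 ± 0.87 CPM in WT (SD, n = 4), 36.7 ± 6.92 in Asxl1Tg, 3.71 ± 1.13 in Srsf2P95H and 29.0 ± 3.95 in DM. Evc2 was at 2.45 ± 1.69 CPM in WT (SD, n = 4), 35.4 ± 5.56 in Asxl1Tg, 3.99 ± 0.65 in Srsf2P95H and 26.4 ± 4.24 in DM. Both were thus high in the groups with the transgene. P3h4, an endoplasmic reticulum protein that takes part in collagen lysine modification, was most alike to Kirrel (r = 0.97), with 1.22 ± 0.22 CPM in WT (SD, n = 4), 3.18 ± 0.59 in Asxl1Tg, 1.13 ± 0.13 in Srsf2P95H and 2.90 ± 0.53 in DM. Nsg1 came second for Kirrel (r = 0.94), and Dzip1l (r = 0.92) and Inppl1 (r = 0.91) followed Evc2 for Pxdn.

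Matn4 was most alike to Amotl2, Fhdc1 and Dock1 (r = 0.90 each). Dock1, an activator of the small GTPase Rac, was at 67.1 ± 10.1 CPM in WT (SD, n = 4), 110 ± 2.18 in Asxl1Tg, 100.2 ± 4.64 in Srsf2P95H and 117 ± 8.07 in DM. Bgn was most alike to Rapgef3 (r = 0.91), which codes for a cyclic AMP-activated exchange factor of the GTPase Rap1, and then to Def8 (r = 0.91) and Gstt3 (r = 0.90). Rapgef3 was at 9.78 ± 0.84 CPM in WT (SD, n = 4), 11.5 ± 2.05 in Asxl1Tg, 15.0 ± 2.22 in Srsf2P95H and 20.6 ± 2.98 in DM. Fn1 was most alike to Hspg2 (r = 0.89), the gene for the basement membrane proteoglycan perlecan, then to Epas1 (r = 0.86) and Kcnk6 (r = 0.85).

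Among the genes that were low in the mutants, Sdc4 was most alike to H2-Ob (r = 0.96), Med13l (r = 0.96) and Card6 (r = 0.95). H2-Ob codes for an MHC class II accessory chain of B cells and was at 68.3 ± 16.2 CPM in WT (SD, n = 4), 29.2 ± 11.1 in Asxl1Tg, 35.9 ± 11.5 in Srsf2P95H and 31.4 ± 4.59 in DM. Card6 was also the gene most alike to Postn (r = 0.93), before Slc18a1 and Peak1 (r = 0.90 each). Chl1 was most alike to Mau2 (r = 0.91), Postn (r = 0.90) and Ccr9 (r = 0.89). Ccr9, a chemokine receptor gene of thymus-seeding progenitors, was at 13.5 ± 7.90 CPM in WT (SD, n = 4), 1.18 ± 0.20 in Asxl1Tg, 1.21 ± 0.36 in Srsf2P95H and 1.15 ± 0.51 in DM.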
